A study of Homo sapiens with 6 samples.

Results

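Translation factors load, start and extend protein synthesis on the ribosome, and aminoacyl-tRNA synthetases attach each amino acid to its transfer RNA. The genes described here are those of both families in Kasumi-1, an established line of acute myeloid leukaemia cells that carries the t(8;21) translocation. They are the protein-coding rows of the deposited table whose symbol starts with EIF or EEF, or has the form of a synthetase symbol such as WARS or CARS2. The rule found 54 genes of the 7983 in the table: 32 initiation factor genes, 3 elongation factor genes, 11 cytosolic synthetases and 8 mitochondrial synthetases. These classes follow the symbol alone, so they also hold regulators, such as the eIF2 kinases and the methyltransferase EEF1AKMT2. GENCODE 29 holds 107 protein-coding genes with such symbols, so 50.5% of them were in the table, as were 35.1% of all its 19969 protein-coding genes. Genes outside the table, and whether they were expressed, were not analysed here.

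RNA sequencing compared cells carrying a non-targeting guide (sgNT, genotype given as WT, called control) with cells in which SETD8 was knocked out by CRISPR/Cas9 (sgSETD8). Each group had 3 libraries of polyadenylated RNA. SETD8, now named KMT5A, encodes a histone H4 lysine methyltransferase. The labels say neither whether the numbered libraries came from separate cultures or guides nor whether the knockout cells were 1 clone, so a p-value here reflects the spread among these 6 libraries, which may be technical. Values are the authors' normalized read counts, each library's reads divided by its size factor. The largest unadjusted p in the authors' deposited table is 0.049998, so it lists only genes that passed 0.05 in their own test of the same libraries. A high share of calls is therefore built into the table, and direction and size carry the description. Fewer cells of a type and less RNA per cell cannot be told apart in bulk RNA.

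Initiation begins when eIF2 brings the initiator tRNA to the small ribosomal subunit and the eIF4 factors bring the capped mRNA, with eIF3 as the scaffold between them. Phosphorylation of eIF2 by stress kinases slows this step, and eIF2B, which reloads eIF2 with GTP, is its target. The same stress pathway raises the transcription factor ATF4, and many cytosolic synthetase genes are known targets of ATF4. Mitochondria use a separate set of synthetases, encoded in the nucleus and imported.

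The libraries held 10966349 to 12557974 reads in listed genes, of which the 54 genes took 4.32% to 4.39% in control and 4.46% to 4.70% in knockout. KMT5A read 1191, 1212 and 1255 in control and 880, 933 and 939 in knockout, a 1.33-fold lower level in the libraries labelled knockout (log2 fold change -0.41, SE 0.07, limma-trend adjusted p = 5.65e-05). All 7 written myeloid blast markers were in the table, with a summed level of 84891 to 87608 in control and 57975 to 59121 in knockout. KIT, MPO and PTPRC fell (MPO 7.95-fold), CD33 and ANPEP rose 2.27-fold and 2.53-fold, and CD34 and RUNX1T1 did not pass the test. Of the markers of other cells, CD3D read 1015 to 1059 in control and 1254 to 1515 in knockout, EPCAM 1277 to 1432 and 1857 to 2044, and CD79A 112 to 126 and 162 to 204. None of the 3 erythroid and 3 fibroblast markers was in the table. The part of these markers in the results below was not tested.

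The sequences in this paragraph are those in which the C/EBP-ATF response element core TGATGNAA was found. This core was searched because the cytosolic synthetases are described below by whether they are known ATF4 targets. RefSeq (GRCh38.p14) windows from 250 bases before to 50 bases after the gene start were matched for 43 of the 54 genes and searched on both strands. The core was in 4 of their 58 windows, all of cytosolic synthetases, against 1.94% of 8216 windows of tested protein-coding genes and 3.62% of all 35116 windows. They were 4 of the 10 cytosolic synthetase windows. DARS, LARS and VARS had no matched window and were not searched, while CARS and WARS had 2 windows each. Neither window of WARS, a known ATF4 target, held the core. None of the 39 initiation factor windows, the 2 elongation windows or the 7 mitochondrial synthetase windows held it. Each sequence runs 5′ to 3′ on the strand of the gene, and capitals mark the match, which reads as the core on the opposite strand.
AARS: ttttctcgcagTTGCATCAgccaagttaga
CARS: ggcgcgacttccggggcggcggTTGCATCA
IARS: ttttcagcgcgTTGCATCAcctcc
MARS: agaagcgggaggccggttccggTTGCATCA
The AARS stretch lies at chr16:70289675-70289704 and its match starts 187 bases before the gene start. The stretches of CARS (chr11:3057418-3057447), IARS (chr9:92293698-92293721) and MARS (chr12:57488042-57488071) have the match 2, 13 and 4 bases before the start, and those of CARS and MARS run past it. MARS is on the plus strand and the other 3 on the minus strand. In GENCODE 29 the CARS, IARS and MARS stretches overlap the 5′ UTR of some transcripts of the gene, and the AARS stretch overlaps the first exon of its neighbour DDX19B. A match is a description of the letters and not evidence of a bound site. The palindrome CACGTG, the E-box bound by MYC and its relatives, was in 19.0% of the 58 windows and 10.0% of windows of tested protein-coding genes. Its 11 genes here went both ways, with CARS2, EIF4G1 and MARS2 higher and EIF1B, EIF5A2 and IARS lower.

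Of the 54 genes, 50 passed the test in either direction, 92.6%, beside 94.1% of tested genes. The authors' deposited table likewise gives 50 of the 54 an adjusted p below 0.05, beside 83.4% of its genes. In knockout cells 34 were higher and 16 lower, and 4 did not pass the test (limma-trend on log2(value + 1), Benjamini-Hochberg adjusted p below 0.05). That is 63% higher and 29.6% lower, where 47.3% of the 7516 tested genes were higher and 46.7% lower. All 54 passed the filter on low values, a mean of at least 10. In 53 of 54 genes the groups did not overlap, beside 95.4% of tested genes. Changes were small: 14 of 54 were called with a log2 fold change over 0.5 in size, 25.9%, beside 51.4% of tested genes. Means of the 54 genes ran from 111 to 307734, whereas tested genes began at 10, and sizes were not compared at matched level. Only WARS and EIF5AL1 passed 1 in size, beside 19% of tested genes. The median log2 fold change was 0.24 over the 54 genes, 0.14 over all tested genes and 0.16 over tested protein-coding genes. In size, the median was 0.38 over the 54 genes and 0.49 over tested protein-coding genes.

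**Figure D1:**
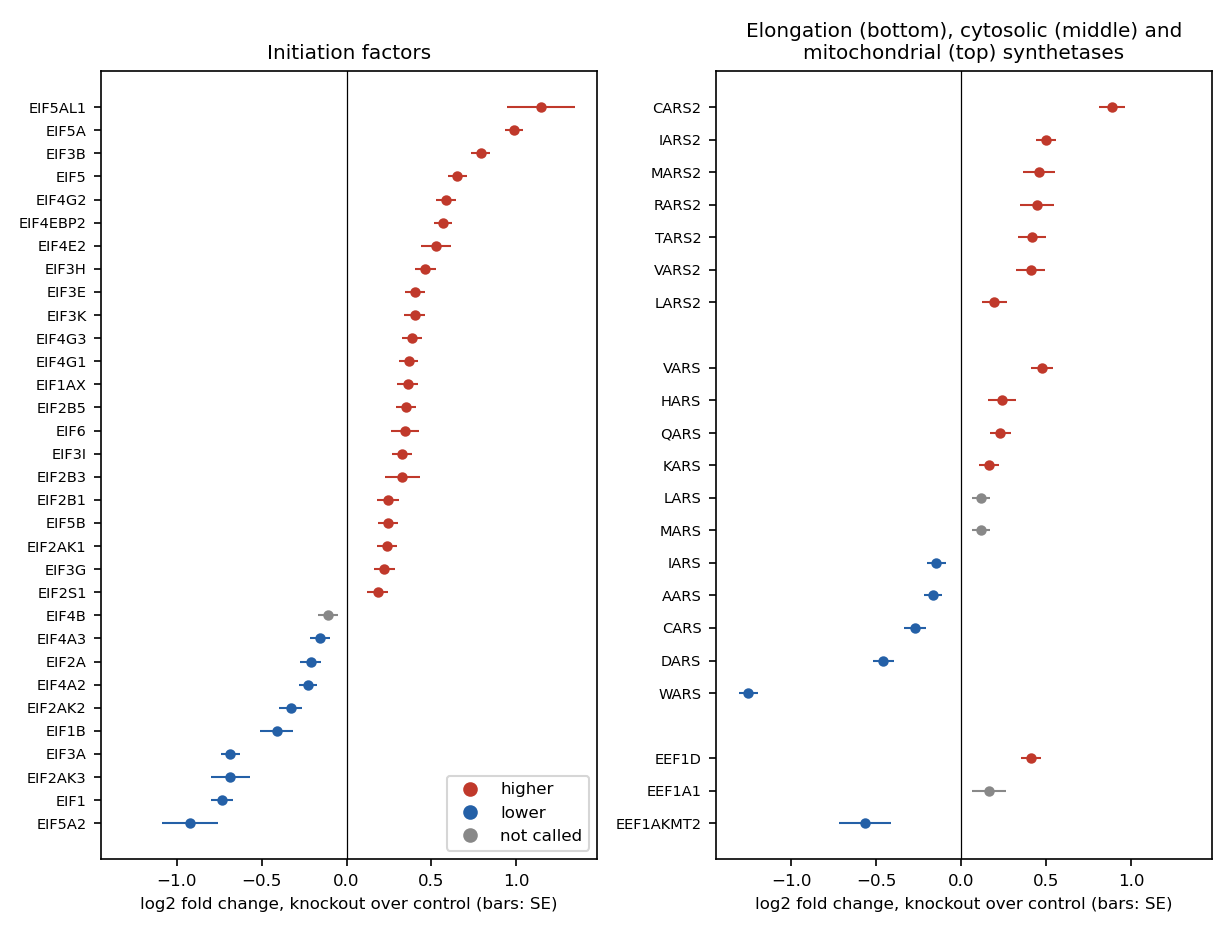
Log2 fold change (knockout over control) of 53 of the 54 genes with its standard error, red for called higher, blue for called lower and grey for not called. Initiation factors are on the left and the other classes on the right; WARS lies lowest at -1.25 and EIF5AL1 highest at 1.14.

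Neighbouring genes moved with many of these genes. For each gene, the median log2 fold change of the 20 nearest tested genes outside the set was taken, 10 on each side where the chromosome allowed. The sign matched in 35 of 54 genes, 64.8%, and in 64.97% of all other tested genes. Across the 54 genes, Spearman's rho between a gene and its neighbours was 0.43, a description over genes that share the same 6 libraries. With the neighbours' median taken off, 17 of the 34 higher genes were still called higher and 7 of the 16 lower genes still lower. These neighbours come from a table selected for change, so their medians overstate the shift of the region. Each median was taken off as a fixed value, so p-values and calls without it leave out the spread among the neighbours. They do not test whether a gene differs from its neighbours. The value without the neighbours' median is given beside each gene where it ended or turned the call, and whether position on the chromosome takes part in the result was not tested.

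**Figure D2:**
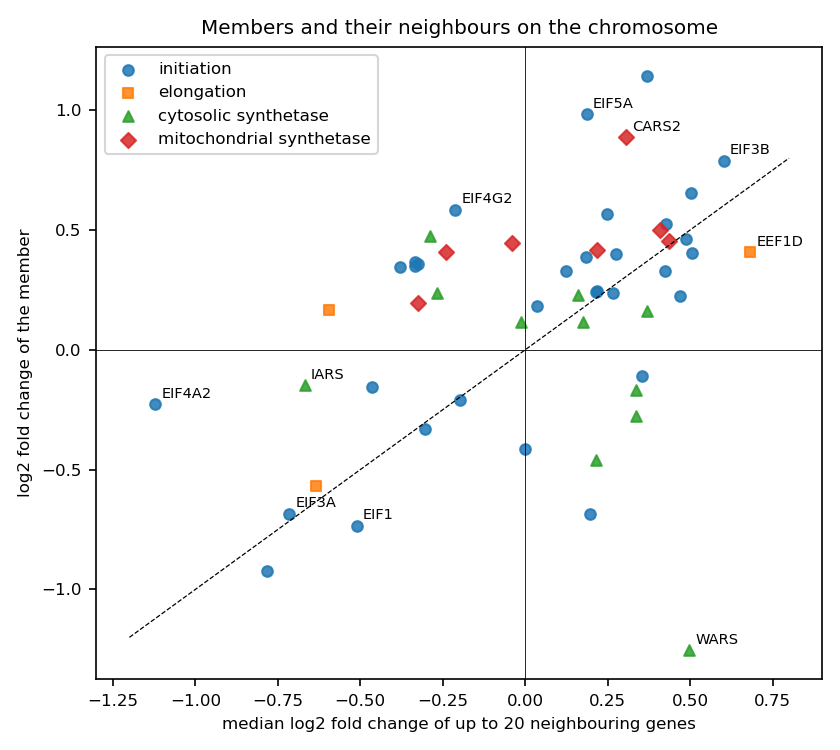
Each point is 1 of 53 of the 54 genes: its own log2 fold change against the median log2 fold change of up to 20 neighbouring genes; the dashed line marks equal values. EIF3A (-0.68 against -0.72) lies near the line, whereas WARS (-1.25 against 0.50) and EIF4A2 (-0.23 against -1.12) lie far from it.

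Of the 56 genes with EIF symbols in GENCODE 29, 32 were in the table, which lists only genes that passed 0.05. Of these 32 initiation factors, 22 were called higher, 9 lower and EIF4B not called (median log2 fold change 0.33). That is 68.8% higher and 28.1% lower, beside 47.3% and 46.7% of tested genes. The change was largest among the eIF5A genes. EIF5A, which despite its name helps the ribosome through difficult peptide bonds, read 3220, 3233 and 3280 in control and 6755, 6281 and 6245 in knockout. It rose 1.98-fold (log2 fold change 0.99, SE 0.05, adjusted p = 2.56e-12), and all knockout libraries stood above all controls. Its paralogue EIF5A2 (chromosome 3, 170888415 to 170908693) went the other way, from 280.0, 317 and 295 to 215, 128 and 138. EIF5A2 fell 1.85-fold (log2 fold change -0.92, SE 0.17, adjusted p = 8.93e-05), with 1 knockout library well above the others but below all controls. Its neighbours had a median of -0.78, and with that taken off EIF5A2 was at -0.14 (adjusted p = 1). As a share of EIF5A, EIF5A2 went from 9.17% ± 0.57 to 2.48% ± 0.61 (SD, n = 3 each, exact permutation test of the log ratio, two-sided p = 0.10, the smallest that 3 against 3 allows).

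EIF5AL1, an intronless copy of EIF5A, is uncertain because reads of near-identical copies can be split or shared between them. It read 56.2, 67.1 and 85.2 in control and 153, 138 and 168 in knockout (log2 fold change 1.14, SE 0.20, adjusted p = 6.40e-05). It amounted to 2.14% ± 0.43 of EIF5A in control and 2.39% ± 0.27 in knockout, ranges that overlapped. The pseudogene EIF5AP4 likewise stood at 1.27% ± 0.40 and 1.59% ± 0.25 of EIF5A. Relative to EIF5A, neither copy separated the groups (exact permutation p = 0.40 and 0.30).

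The eIF3 complex had 7 genes in the table, of which 6 rose and EIF3A fell. EIF3B, a core scaffold subunit, read 4242, 4557 and 4513 in control and 7363, 8170 and 7493 in knockout. It rose 1.73-fold (log2 fold change 0.79, SE 0.06, adjusted p = 2.03e-10), and 17 of its 20 neighbours were higher with a median of 0.60. With that median taken off, EIF3B was still higher, at 0.19. EIF3A, the largest core subunit, read 10990.5, 10422 and 10703 in control and 6441, 6629 and 6933 in knockout, a 1.61-fold fall (log2 fold change -0.68, SE 0.05, adjusted p = 8.90e-10). Only 1 of its 20 neighbours on chromosome 10 was higher, their median was -0.72, and EIF3A was at 0.03 (adjusted p = 1) without it. EIF3H and EIF3E rose by 0.46 and 0.41 on the log2 scale, in a stretch of chromosome 8 where 15 of 20 neighbours of each were higher. Without the neighbours' median they were at -0.02 (adjusted p = 1) and -0.10 (adjusted p = 0.34). EIF3K, EIF3I and EIF3G rose by 0.40, 0.33 and 0.22. EIF3K was at 0.12 (adjusted p = 0.23) and EIF3G at -0.25 (adjusted p = 0.0039, now lower) without their neighbours' medians, while EIF3I kept its call at 0.21.

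Start-site selection factors split. EIF1, which guards the choice of the start codon, read 12460, 12944 and 13117 in control and 8590, 7406 and 7236 in knockout. It fell 1.66-fold (log2 fold change -0.73, SE 0.06, adjusted p = 2.69e-09), with no overlap, and stayed lower at -0.22 without its neighbours' median of -0.51. EIF1B, a close paralogue, fell from 547, 503 and 540.1 to 412, 414 and 369 (log2 fold change -0.41, SE 0.10, adjusted p = 0.00173), with 10 of its 20 neighbours higher. It stood at 4.13% ± 0.25 of EIF1 in control and 5.16% ± 0.40 in knockout (SD, n = 3 each, exact permutation p = 0.10). EIF1AX, the X-linked eIF1A that works beside eIF1, rose from 2566, 2243 and 2405 to 3171, 3191 and 2889 (log2 fold change 0.36, SE 0.06, adjusted p = 7.82e-05). The pseudogene EIF1AXP1 stood at 9.14% ± 0.99 of EIF1AX in control and 9.02% ± 1.15 in knockout. EIF5, which triggers GTP hydrolysis by eIF2 at the start codon, rose from 3095, 3066 and 2992 to 4884, 4871 and 4642 (1.57-fold, log2 fold change 0.65, SE 0.05, adjusted p = 1.89e-09). EIF5 lay among 17 of 20 higher neighbours, and without their median it was at 0.15 (adjusted p = 0.056). EIF5B, which joins the ribosomal subunits, and EIF6, which keeps them apart, rose by 0.24 and 0.35. EIF5B was at 0.03 (adjusted p = 1) without its neighbours' median. EIF6 was at 0.73 there, and at 0.12 (adjusted p = 0.43) with the trend of gene length removed.

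The eIF2 kinases did not move together. EIF2AK3 encodes PERK, the kinase that senses stress in the endoplasmic reticulum. It read 428, 413 and 399 in control and 229, 267 and 276 in knockout, a 1.61-fold fall (log2 fold change -0.68, SE 0.12, adjusted p = 4.29e-05) among neighbours with a median of 0.20. EIF2AK2, the double-stranded RNA sensor PKR, fell from 2124, 1826 and 1920 to 1501, 1537 and 1626 (log2 fold change -0.33, SE 0.07). EIF2AK1, the haem-regulated kinase HRI, rose from 2458, 2696 and 2807 to 3089, 3188 and 3101 (log2 fold change 0.24, SE 0.06). The groups did not overlap in any of these kinases. Without the neighbours' median, EIF2AK2 was at -0.03 and EIF2AK1 at -0.03 (adjusted p = 1 for each), whereas EIF2AK3 was still lower at -0.88.

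EIF2S1, the alpha subunit of eIF2 that these kinases phosphorylate, rose by 0.18 (SE 0.06, adjusted p = 0.027), and EIF2A, an alternative carrier of initiator tRNA, fell by 0.21 on the log2 scale (adjusted p = 0.0084). EIF2A was at -0.01 (adjusted p = 1) and EIF2S1 at 0.15 (adjusted p = 0.12) without the neighbours' medians. All 3 listed eIF2B subunits rose: EIF2B5, the catalytic epsilon subunit, by 0.35, EIF2B3 by 0.33 and EIF2B1 by 0.25. EIF2B5 read 1889, 2051 and 1904 in control and 2504, 2477 and 2462 in knockout. It was at 0.68 without the neighbours' median of -0.33, whereas EIF2B1 and EIF2B3 were at 0.03 and -0.09 (adjusted p = 1 for each).

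In the cap-binding group the 3 eIF4G genes rose. EIF4G2, a relative of eIF4G that lacks the cap-binding contact and serves cap-independent initiation, read 11281, 11780 and 12193 in control and 17602, 18382 and 16918 in knockout. It rose 1.5-fold (log2 fold change 0.59, SE 0.06, adjusted p = 2.24e-08), with neighbours at a median of -0.21. EIF4G1, the main scaffold of the cap complex, rose from 10336, 10667 and 10698 to 12735, 14140 and 14005 (log2 fold change 0.37), and EIF4G3 rose by 0.39. EIF4EBP2, which represses initiation by holding eIF4E, rose from 2553, 2573 and 2562 to 3713, 3880 and 3800. The rise was 1.48-fold (log2 fold change 0.57, SE 0.05, adjusted p = 1.92e-08). These 4 genes kept their calls without the neighbours' medians. EIF4E2, a cap-binding relative of eIF4E linked to repression, rose by 0.53 and was at 0.10 (adjusted p = 0.94) without them.

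The helicases fell a little. EIF4A2 read 15481, 15737 and 15339 in control and 13389, 13466 and 12918 in knockout (log2 fold change -0.23, SE 0.05, adjusted p = 0.00176). Its neighbours on chromosome 3 had a median of -1.12, with 2 of 20 higher. EIF4A2 stood 0.89 above that median (adjusted p = 4.22e-11, which leaves out the neighbours' own spread). EIF4A3, the helicase of the exon junction complex, fell by 0.16 on the log2 scale (adjusted p = 0.034) and stood 0.31 above its neighbours. EIF4B, the helicase cofactor and the initiation factor with the highest mean, read 20373, 20282 and 19798 in control and 18922, 19474 and 17720 in knockout. Its log2 fold change of -0.11 (SE 0.06, adjusted p = 0.20) did not pass the test, although the groups did not overlap. It passed as lower with a DESeq2 Wald test (adjusted p = 0.044), and upper-quartile scaling and removal of the neighbours' median also gave a lower call.

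**Figure D3:**
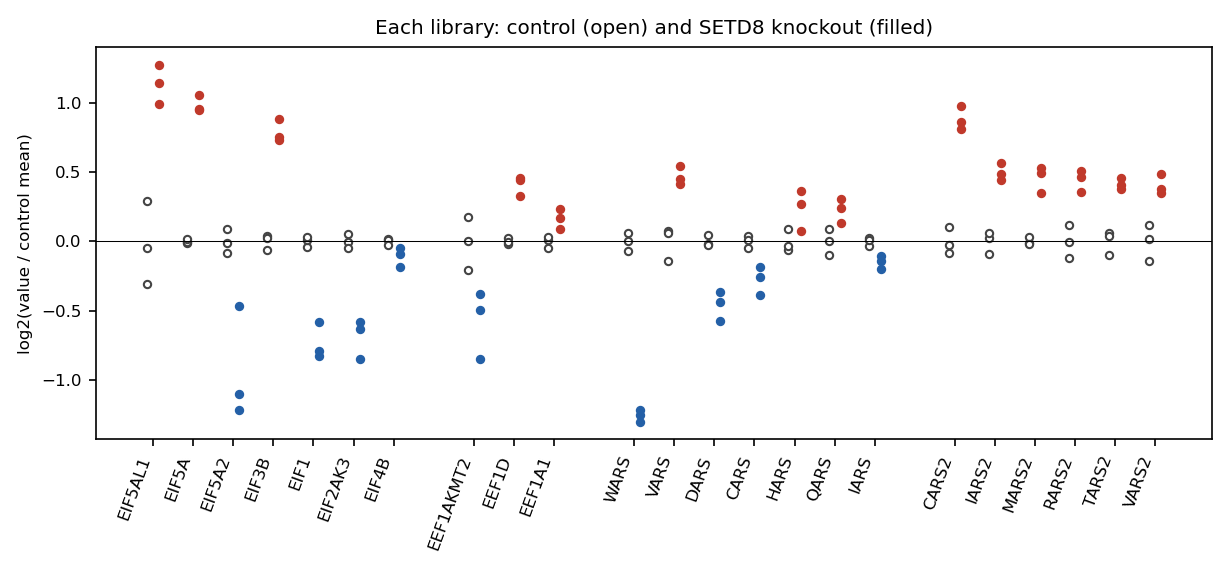
Each library of the genes chosen by the largest called changes and by the highest mean in each class, as log2 of its value over the control mean (open, control; filled, knockout; colour marks the side of the mean). Only HARS has a knockout library inside the control range.

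Of the 16 genes with EEF symbols in GENCODE 29, which include enzymes that modify the factors, only 3 were in the table. These were EEF1A1, EEF1D and the methyltransferase EEF1AKMT2, which is not itself an elongation factor. EEF1A1, which carries charged tRNA to the ribosome, was by far the most abundant gene of the set. It read 280717, 292533 and 297049 in control and 326682, 341319 and 308104 in knockout. The groups did not overlap, yet the log2 fold change of 0.16 (SE 0.10) did not pass the test (adjusted p = 0.30). It was called higher by edgeR's quasi-likelihood test (adjusted p = 0.037) and by DESeq2 (adjusted p = 0.0065), and in the authors' deposited table (adjusted p = 0.00276). It was also higher with the neighbours' median of -0.59 taken off (0.76, adjusted p = 4.80e-06). Per kilobase of gene model, EEF1A1 stood at 48773 in control, whereas the initiation factors ranged from 18.1 to 3544.

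EEF1D, a subunit of the exchange factor that recharges eEF1A, read 2059, 2112 and 2074 in control and 2610, 2823 and 2861 in knockout (log2 fold change 0.41, SE 0.06, adjusted p = 6.81e-06). Of its 20 neighbours, 19 were higher with a median of 0.68. EEF1D was at -0.27 (adjusted p = 0.0014, lower) without that median. EEF1AKMT2, a methyltransferase of eEF1A, read 304, 232 and 269 in control and 189.7, 206 and 148 in knockout (log2 fold change -0.57, SE 0.15, adjusted p = 0.00424). None of its 20 neighbours on chromosome 10 was higher, and EEF1AKMT2 was at 0.07 (adjusted p = 1) without their median of -0.63.

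Of the 18 cytosolic synthetase genes in GENCODE 29, 11 were in the table. These listed genes went both ways, with 4 of 11 higher, 5 lower and 2 not called (median log2 fold change 0.12). That is 36.4% higher and 45.5% lower, beside 47.3% and 46.7% of tested genes. Leaving out any 1 library gave 2 to 3 higher and 3 to 5 lower, and the median was -0.058 without the neighbours' medians. WARS, the tryptophanyl-tRNA synthetase, which is also known as an interferon-induced gene, had the largest fall of all 54 genes. It lies on chromosome 14 (100333788 to 100376805, minus strand) and read 4992, 5460 and 5227 in control and 2252, 2195 and 2121 in knockout. WARS fell 2.39-fold (log2 fold change -1.25, SE 0.06, adjusted p = 8.39e-14). The knockout libraries lay close together, far below every control, and the neighbours went the other way with a median of 0.50. Per kilobase WARS stood at 822 in control, near DARS, KARS and MARS at 856, 841 and 789, and at 344 in knockout. A window of WARS held the letters TTCNNNGAA, the pattern bound by STAT factors, a motif chosen after the values were seen.
WARS: gctcaagtgtTTCTGAGAAtctgggtgat
This stretch lies at chr14:100375471-100375499 on the minus strand, in a 5′ UTR exon of some WARS transcripts in GENCODE 29, with the match in capitals starting 142 bases before the RefSeq start. The pattern was in 5.73% of windows of tested protein-coding genes and in 3 of the 58 windows here, 1 each of WARS, CARS and EIF3I. Of the other carriers, CARS fell and EIF3I rose.

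The next largest changes were those of VARS and DARS, which are not on the list of known ATF4 targets. VARS, for valine, read 2136, 2487 and 2456 in control and 3149, 3435 and 3227 in knockout, a 1.39-fold rise (log2 fold change 0.47, SE 0.06, adjusted p = 3.13e-06). DARS, for aspartate, read 3393, 3538 and 3377 in control and 2667, 2535 and 2301 in knockout, a 1.37-fold fall (log2 fold change -0.46, SE 0.06, adjusted p = 2.25e-06). Both stood against their neighbours, whose medians were -0.29 for VARS and 0.21 for DARS. QARS, for glutamine, rose from 3201, 3426 and 3642 to 4229, 4051 and 3752 (log2 fold change 0.23, adjusted p = 0.00504) and was at 0.07 (adjusted p = 0.91) without its neighbours' median. HARS, for histidine, read 987, 887 and 907 in control and 978, 1195 and 1118 in knockout (log2 fold change 0.24, adjusted p = 0.024), the only gene of the 54 whose groups overlapped. KARS, for lysine, which also serves mitochondria, rose by 0.16 (adjusted p = 0.038) and was at -0.21 (adjusted p = 0.012, lower) without its neighbours' median.

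None of the known ATF4 targets among the cytosolic synthetases was called higher. Of 12 written targets 6 were in the table: WARS, CARS, AARS and IARS fell and LARS and MARS did not pass the test, a median log2 fold change of -0.16. Of 6 written other cytosolic synthetases 5 were in the table, with HARS, KARS, QARS and VARS higher and DARS lower, a median of 0.23. The difference between these lists, which hold few genes and were chosen with earlier results known, was not tested. CARS, for cysteine, read 2250, 2114 and 2196 in control and 1926, 1831 and 1673 in knockout (log2 fold change -0.27, SE 0.06, adjusted p = 0.00156). AARS, for alanine, fell from 8128, 8470 and 8503 to 7128, 7626 and 7611 (log2 fold change -0.17, adjusted p = 0.018). IARS, for isoleucine, the cytosolic synthetase with the highest mean, fell from 10044, 10408 and 10332 to 8951, 9556 and 9311 (log2 fold change -0.15, adjusted p = 0.037). LARS, for leucine, read 5403, 5254 and 5447 in control and 5820, 5805 and 5846 in knockout, and MARS, for methionine, 5357, 5818 and 5460 and 5851, 6071 and 6103. Both had a log2 fold change of 0.12, and both became higher calls when p was adjusted over the table only (adjusted p = 0.036 and 0.045) or with the trend of gene length removed (0.24 and 0.21). The genes with the TGATGNAA core thus comprised AARS, CARS and IARS, which fell, and MARS, at a log2 fold change of 0.12 (adjusted p = 0.12).

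These small falls had limits. Without the neighbours' medians IARS was at 0.52 (adjusted p = 8.39e-08, higher), while AARS and CARS were at -0.50 and -0.61. With the trend of gene length removed, CARS was at -0.11 (adjusted p = 0.28) and IARS at -0.04 (adjusted p = 1). MARS overlaps DDIT3 on the opposite strand, and DDIT3 went from 784 to 323, so reads of the pair cannot be told apart if the counting ignored strand. In the multisynthetase complex, of 11 written genes 6 were in the table: 2 higher (KARS and QARS), 2 lower (DARS and IARS) and 2 not called. In all, 38 of the 54 genes overlap some gene on the opposite strand in GENCODE 29.

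Mitochondrial synthetases had the highest share of higher calls among the classes, 7 of 8 or 87.5%, beside 47.3% of tested genes (median log2 fold change 0.43). CARS2, for cysteine, read 720.4, 659 and 631 in control and 1219, 1322 and 1178 in knockout. It rose 1.85-fold (log2 fold change 0.89, SE 0.08, adjusted p = 5.05e-09), with a median of 0.31 among its neighbours, and stayed higher at 0.58 without it. IARS2, for isoleucine, the one with the highest mean, rose from 2578, 2379 and 2641 to 3545, 3741 and 3450 (log2 fold change 0.50, SE 0.06, adjusted p = 4.75e-07). MARS2 (methionine) rose from 429, 441 and 428 to 623, 609 and 552, and RARS2 (arginine) from 413, 350.0 and 379 to 525, 541 and 487. The groups did not overlap in any of these genes.

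TARS2 (threonine) rose from 611, 601 and 547 to 807, 762 and 776 and VARS2 (valine) from 595, 663 and 713 to 837, 920.5 and 852, with log2 fold changes of 0.42 and 0.41. LARS2 (leucine) rose by 0.19 (adjusted p = 0.045), a call that ended with edgeR (adjusted p = 0.053), DESeq2 (0.068) and TMM scaling (0.063). Without the neighbours' medians CARS2, LARS2, RARS2 and VARS2 were still called higher. IARS2, MARS2 and TARS2 were at 0.09, 0.02 and 0.20, none of them called (adjusted p = 0.52, 1 and 0.13). Per kilobase in control, mitochondrial synthetases had a median of 144 and cytosolic ones of 789.

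For amino acids with both enzymes in the table, the balance could be read within each library. CARS2 stood at 30.6% ± 1.70 of CARS in control and 68.6% ± 4.70 in knockout, and IARS2 at 24.7% ± 1.59 and 38.6% ± 1.36 of IARS (SD, n = 3 each, exact permutation two-sided p = 0.10 for each pair). MARS2 went from 7.81% ± 0.21 to 9.91% ± 0.81 of MARS, also without overlap (exact p = 0.10). LARS2, at 18.9% and 19.95% of LARS, and VARS2, at 27.8% and 26.6% of VARS, overlapped between groups (exact p = 0.30 and 0.20). In all 11 ratios of this kind were computed, with Benjamini-Hochberg adjusted values from 0.18 to 0.90, and since 3 against 3 cannot go below an exact p of 0.10, none could pass 0.05.

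**Figure D4:**
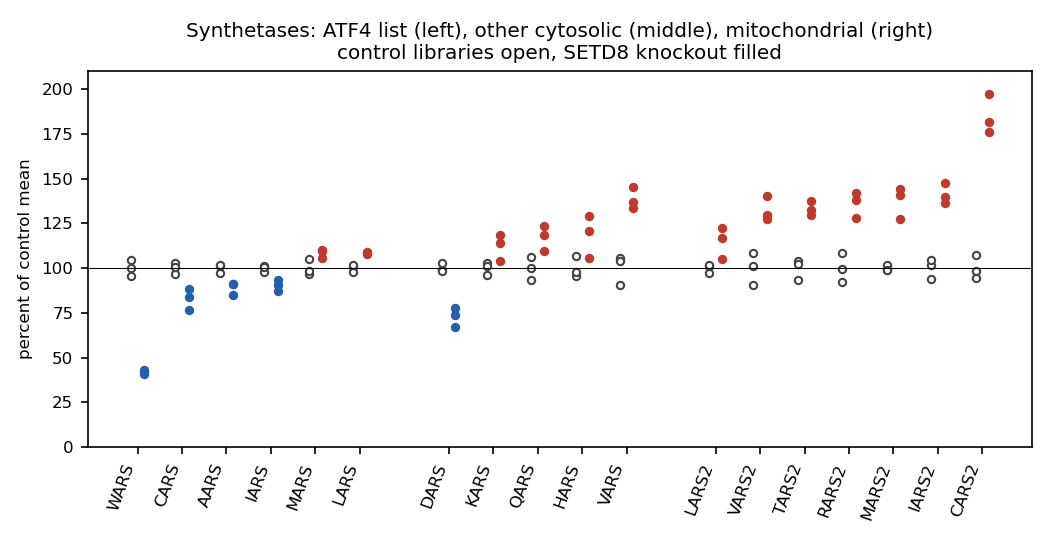
The table's synthetases, 18 in the plot, as percent of their control mean in each library (open, control; filled, knockout, red above and blue below the control mean on average, whether or not called). WARS lies lowest and CARS2 highest, and the 7 mitochondrial synthetases on the right stand above their controls.

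Several calls of genes with small changes ended when 1 library was left out. Fewer libraries also make a weaker test, so a lost call does not show that 1 library made it. KARS lost its call without control 2 although its log2 fold change was larger there, 0.18 against 0.16 with all 6 libraries. The call of AARS ended without knockout 1 (adjusted p = 0.058), control 2 (0.084) or control 3 (0.093), and that of IARS without knockout 1 (0.093), knockout 2 (0.057), control 2 (0.15) or control 3 (0.14). HARS lost its call without knockout 2 (0.19), knockout 3 (0.065), control 2 (0.11) or control 3 (0.086). KARS lost it without knockout 1 (0.088), knockout 2 (0.26), control 1 (0.16), control 2 (0.062) or control 3 (0.083). LARS2 lost it without knockout 2 (0.15), knockout 3 (0.22), control 1 (0.13), control 2 (0.086) or control 3 (0.087). EIF2S1 lost it without knockout 1 (0.088), knockout 2 (0.0999), control 2 (0.076) or control 3 (0.19). EIF4A3 lost it without knockout 2 (0.097), knockout 3 (0.058), control 2 (0.19) or control 3 (0.15). EIF2B3 lost it without knockout 2 (0.14) or control 1 (0.063), and EIF2A without knockout 3 (0.055). No call of the other genes of the set named here changed when any 1 library was left out, and genes outside the set were not run in this way. Upper-quartile scaling ended the calls of HARS (0.091), KARS (0.20), EIF2S1 (0.15) and LARS2 (0.19). Removing the trend of gene length ended those of KARS (0.11), EIF2AK2 (0.0999), EIF2B3 (0.069), EIF3G (0.059), EIF3I (0.21) and EIF4A3 (0.067).

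Genes of the pathway outside these families were taken from written lists, and only those in the table were counted. In the table were 5 of 6 written symbols for termination and recycling and 4 of 5 eIF2 phosphorylation partners. For poly(A) binding and cap regulation it was 9 of 10, and for mitochondrial translation factors 9 of 16. Synthetase partners and subunits had 4 of 8, and elongation factor modifiers 2 of 9. A few written symbols are aliases of 1 gene. Counts of called genes on these lists stand beside 47.3% of tested genes higher and 46.7% lower. No list was tested against these shares. In termination and recycling, 3 of 5 listed genes rose and 1 fell. GSPT2, a retrogene copy of the release factor eRF3, read 10.2, 12.6 and 14.9 in control and 139.7, 110.2 and 129.8 in knockout, a 10.1-fold rise (log2 fold change 3.24, SE 0.29, adjusted p = 4.54e-09). Its parent GSPT1 fell from 3194, 3120 and 3076 to 2513, 2449 and 2479 (log2 fold change -0.34), among 20 neighbours of which 0 were higher. ETF1, the release factor that recognises stop codons, rose by 0.35, and ABCE1, which splits the ribosome afterwards, by 0.17.

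Among partners of eIF2 phosphorylation, 2 of 4 rose and 2 fell. ATF4 itself, also on the written list, was not in the table. IMPACT, which inhibits the kinase GCN2, rose from 1250, 1250 and 1297 to 2151, 1970 and 2056, a 1.63-fold rise (log2 fold change 0.70, SE 0.06, adjusted p = 6.91e-09). GCN1, which activates GCN2, rose by 0.43, with 1 knockout library at 6992 and the others at 9224 and 9170. PPP1R15A and PPP1R15B, the subunits that direct phosphatase to eIF2, fell by 1.99 and 0.49 on the log2 scale.

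In poly(A) binding and cap regulation, 5 of 9 genes rose and 4 fell. MKNK2, a kinase of eIF4E, rose 1.78-fold, from 1391, 1549 and 1470 to 2489, 2609 and 2754 (log2 fold change 0.83, adjusted p = 5.51e-10), where 18 of 20 neighbours were higher. PABPC1, the main poly(A) binding protein, rose by 0.40, among neighbours with a median of 0.46 and 17 of 20 higher. PDCD4, an inhibitor of the eIF4A helicase, fell 1.41-fold, where 0 of 20 neighbours were higher. Among mitochondrial translation factors, 5 of 9 rose and 4 fell, a median of 0.24. TSFM, the mitochondrial elongation factor Ts, rose 1.72-fold, from 278, 329 and 283 to 512, 528 and 487, where 10 of 20 neighbours were higher. MRRF, the recycling factor, fell 1.68-fold, from 919, 948 and 879 to 558, 545 and 536, a log2 fold change of -0.74 among neighbours with a median of -0.80 and 0 of 20 higher.

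Among synthetase partners and subunits, 2 of 4 rose and 2 fell. FARSA, the alpha subunit of the cytosolic phenylalanine enzyme, rose by 0.35, among neighbours with a median of 0.37, and TARSL2, a relative of the threonine enzyme, by 0.46. SEPSECS and PSTK, which make selenocysteine on its tRNA in successive steps, both fell: SEPSECS from 1313, 1226 and 1263 to 814, 850.0 and 874 (log2 fold change -0.58, adjusted p = 6.40e-07), and PSTK from 59.3, 63.2 and 66.4 to 39.6, 29.8 and 20.5 (log2 fold change -1.09, adjusted p = 0.00458). PSTK had 0 of 20 neighbours higher and SEPSECS 13 of 20. The 2 modifiers of elongation factors that were in the table, DPH1 and DPH2 of diphthamide synthesis on eEF2, each rose by 0.48, among neighbours with a median of 0.42.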

How the data were processed

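Polyadenylated RNA was sequenced with a directional NEBNext kit, per the labels' protocols. The submitters' processing notes name hg38, HISAT2 and DESeq2, and neither the counter nor its strand setting is given in the sources used here. The authors' library values are a signal, normalized read counts. Taking what 1 read is worth in each library (0.934 to 1.04) as the step gave whole reads for 100% of values within 0.001, less certainly in 2 libraries whose step lies near 1. Beside them the authors deposited log2 fold changes and 2 columns of p-values, raw and adjusted over 19860 genes. Coordinates of all 54 genes matched GENCODE 29.

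The 7516 genes with a mean of at least 10 were fitted by limma-trend without a block, on log2 of the value plus a pseudocount of 1 (limma 3.58.1 under R 4.3.3). Tests were two-sided, and p was Benjamini-Hochberg adjusted over 19860 genes. Fold changes on this scale understate low genes. The script was checked on simulated counts. No 2 libraries of a group matched within sampling noise (chi-square per degree of freedom 3.83 to 11.9). Recovered reads were also tested with edgeR 4.0.16 and DESeq2 1.42.0. Library values were printed for the up to 6 largest called changes with a mean of at least 50 and the highest mean in each class, and for other genes chosen after their values were seen. Members and lists were chosen with earlier results of these data known. Among the 54 genes and the marker lists, 1 gene each is counted but not reported here by name or value.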

Additional observations from a re-analysis of the deposited data

How the results depend on the processing

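Of the 54 genes, 40 kept direction and call under all 16 alternatives other than the 2 trend removals (edgeR, DESeq2, scalings, pseudocounts, filters, adjustment over the table, replicate block, each library left out), and none of the 54 changed sign there. Same-numbered libraries did not deviate together (r = 0.0086, -0.0033 and -0.050), so the numbers were not treated as pairs; with the replicate block the counts stayed at 34 higher and 16 lower and no call changed. Elongation had 2 higher genes with edgeR and with DESeq2, since EEF1A1 passed. With upper-quartile scaling, which moved the median of all genes by -0.05, the median was 0.19 over the 54 genes, 0.062 over cytosolic synthetases (2 called higher) and 0.27 over initiation factors. With the length trend removed, 3 cytosolic synthetases were lower and the initiation median was 0.27. With the neighbours' median removed, 21 of the 54 were higher, median 0.094; initiation had 13 higher and 5 lower, median 0.11; mitochondrial synthetases 4 higher, median 0.34; elongation a median of 0.066; cytosolic synthetases a median of -0.058, reversed; and 2255 of all tested genes were higher. There the sign turned for IARS (0.52), KARS (-0.21), LARS (-0.058), EEF1AKMT2 (0.066), EEF1D (-0.27), EIF2AK1 (-0.029), EIF2B3 (-0.095), EIF3A (0.033), EIF3E (-0.10), EIF3G (-0.25), EIF3H (-0.024), EIF4A2 (0.89) and EIF4A3 (0.31). These shifts follow from what was taken off. Leaving out 1 library at a time gave cytosolic counts of 2 to 3 higher and 3 to 5 lower, and medians of 0.23 to 0.27 over the 54 genes and 0.28 to 0.35 over initiation factors. Depth limits low genes such as EIF5AL1 and PSTK (SE 0.20 and 0.29). The calls that ended when 1 library was left out had log2 fold changes of at most 0.33 in size.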
